A study of Mus musculus with 6 samples.

Results

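Enteroendocrine cells are the scattered hormone-secreting cells of the intestinal epithelium, and 10 genes that mark them were followed in villi epithelium of the mouse duodenum. The genes were chosen by name. They are the granule proteins *Chga* and *Chgb*, the serotonin enzyme gene *Tph1*, the transcription factors *Neurod1* and *Pax6*, and the hormones *Gip*, *Cck*, *Sct*, *Ghrl* and *Sst*. All 10 were present among the 20409 features of the count table, and all 10 passed the filter on low counts. Bulk RNA-seq was performed on 6 mice, 3 wild-type and 3 double mutant, with each library from a different mouse. Double mutant mice (Smad4 knockout; beta-catenin GOF in the labels) carried Villin-CreERT2, Smad4 fl/fl and 1 floxed copy of *Ctnnb* exon 3 on a C57BL6-enriched background. They received intraperitoneal tamoxifen at 0.05 g/kg on 4 consecutive days, and their villi were taken 7 days after the first of these injections. Wild-type mice were littermates that received no tamoxifen, and which of the floxed alleles and the transgene they carried is not given in the sources used here. The mutation and the injections therefore cannot be told apart in this comparison. Villin drives the recombinase throughout the intestinal epithelium, so enteroendocrine cells and all their epithelial neighbours were targeted together. Mouse 1 of each group was male and mice 2 and 3 were female, and no age is given.

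Enteroendocrine cells arise from crypt progenitors that switch on *Neurog3* and then *Neurod1*, migrate up the villus, and store peptide hormones or serotonin in dense-core granules that are released toward the blood and nerves after a meal. Single cells can change the hormones they make as they climb from crypt to villus, and BMP signalling, which acts through *Smad4*, is known to take part in that switch. Duodenal cells are best known for GIP, cholecystokinin and secretin, which are released in response to nutrients and acid, and for ghrelin, somatostatin and serotonin. Because whole epithelium was sequenced, fewer enteroendocrine cells and less RNA in each cell cannot be told apart in any of the values that follow.

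Libraries held 19678507 to 26337318 counts, so that 3 counts correspond to 0.125 to 0.163 normalised CPM, the count of a gene scaled to a fixed library size with TMM, and intervals and floors of this kind cover counting error only. *Smad4* lay between 120 and 180 normalised CPM in the wild-type mice and between 26.1 and 36.8 in the double mutant mice (log2 fold change −2.22, edgeR adjusted p = 0.000145). *Ctnnb1* was at 884 to 990 CPM and 757 to 916 CPM respectively (adjusted p = 0.36), and a count over the whole gene does not show whether exon 3 was removed. Enterocyte markers, 10 of 10 in the table, summed to 50720 to 59450 CPM in wild-type and 32760 to 34790 CPM in double mutant mice, and the 6 mesenchyme markers in the table reached at most 3.66 CPM together in any mouse. Wild-type mouse 1, the only male of its group, stood apart: its 9 goblet cell markers summed to 125 CPM, against 11620 and 11050 in wild-type mice 2 and 3 and 4673 to 5067 in the double mutants, and its 8 Paneth cell markers to 7.96 CPM against 956 and 1593. For this reason, counts of calls and calls of named genes that change without that mouse are also given without it.

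The start regions of the 10 genes are shown first for 6 of them, chosen to set windows with and without the cyclic AMP response element, a motif known from several hormone and granule genes, beside one another. RefSeq start windows were matched for all 10 genes, and each 250 base stretch upstream of a start was located by exact match in mm9, giving 15 windows in all. *Sst* (chr16:23890931-23891180, minus strand) and the first start of *Pax6* (chr2:105508803-105509052, plus strand) hold the full element. *Chga* (chr12:103792901-103793150, plus strand) and, on the opposite strand of its window, *Cck* (chr9:121404813-121405062, minus strand) hold its first 5 letters TGACG but not the full element. *Sct* (chr7:148465033-148465282, minus strand) and *Gip* (chr11:95885609-95885858, plus strand) hold neither. Each is written 5′ to 3′ on the strand of the gene and ends at the base before the RefSeq start, and capitals mark the element or its partial match TGACG on either strand and the E-box CANNTG, the motif read by NEUROD1 and related factors.
Sst: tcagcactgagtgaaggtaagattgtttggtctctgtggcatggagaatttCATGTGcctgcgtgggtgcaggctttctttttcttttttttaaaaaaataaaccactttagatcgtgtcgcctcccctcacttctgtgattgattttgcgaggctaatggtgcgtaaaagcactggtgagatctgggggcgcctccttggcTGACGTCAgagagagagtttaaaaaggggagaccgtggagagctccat
Pax6: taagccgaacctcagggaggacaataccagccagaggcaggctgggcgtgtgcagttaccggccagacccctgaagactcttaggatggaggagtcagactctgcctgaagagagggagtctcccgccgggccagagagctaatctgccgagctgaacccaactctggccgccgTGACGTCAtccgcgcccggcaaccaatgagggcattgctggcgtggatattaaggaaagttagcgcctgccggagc
Chga: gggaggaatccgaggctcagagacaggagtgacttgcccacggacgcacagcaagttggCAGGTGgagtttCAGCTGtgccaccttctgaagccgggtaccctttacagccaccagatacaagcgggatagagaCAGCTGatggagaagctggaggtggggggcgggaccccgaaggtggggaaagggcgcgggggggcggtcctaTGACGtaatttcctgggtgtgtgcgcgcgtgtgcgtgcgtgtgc
Cck: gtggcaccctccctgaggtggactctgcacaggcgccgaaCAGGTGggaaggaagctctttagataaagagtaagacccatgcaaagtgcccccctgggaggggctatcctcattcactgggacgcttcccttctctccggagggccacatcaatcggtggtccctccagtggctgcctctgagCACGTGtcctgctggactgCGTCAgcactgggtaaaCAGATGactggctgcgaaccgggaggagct
Sct: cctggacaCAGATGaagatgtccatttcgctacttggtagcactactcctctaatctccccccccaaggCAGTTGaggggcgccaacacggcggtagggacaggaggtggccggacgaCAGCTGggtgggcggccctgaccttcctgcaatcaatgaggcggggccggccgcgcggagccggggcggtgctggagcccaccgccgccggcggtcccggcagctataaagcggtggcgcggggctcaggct
Gip: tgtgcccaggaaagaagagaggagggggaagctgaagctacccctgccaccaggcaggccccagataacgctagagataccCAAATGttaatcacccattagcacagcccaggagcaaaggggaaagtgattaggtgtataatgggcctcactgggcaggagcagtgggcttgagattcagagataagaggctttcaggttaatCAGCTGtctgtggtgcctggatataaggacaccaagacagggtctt

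The full element TGACGTCA was found at 3 of the 10 genes, *Sst*, *Pax6* and *Chgb*, ending 40, 68 and 64 bases before the start. These are 3 of the 15 windows, while 1.55% of 32851 RefSeq windows of the same length hold it. TGACG, searched on both strands and contained in every full element, occurred in 8 of the 15 windows, at 6 of the 10 genes, and in 17.8% of all windows. The E-box CANNTG reads the same on both strands and occurred in 10 of the 15 windows, close to its share of 66.2% of all windows. A TCF/LEF core (CTTTGA, both strands), the letters read by the partners of beta-catenin, was present in 2 of the 15 windows, 1 each of *Tph1* and *Ghrl* (13.8% of all windows). The SMAD box CAGAC (both strands) was present in 7 of the 15, at 5 of the 10 genes (42.2% of all windows). Overlapping windows of *Ghrl* hold the same SMAD box, which is counted in each. The shares of both motifs among the 15 windows are close to those of all windows. These are matches of letters only. Genes with and without the full element are found on both sides of the expression results below: *Sst* and *Chgb* fell, *Pax6* did not pass the test, and *Sct* and *Tph1*, which lack it, fell the most along with *Sst*. In the genome the genes are scattered, with *Chgb*, *Neurod1* and *Pax6* on chromosome 2, *Tph1* and *Sct* on chromosome 7, and the other 5 each on a chromosome of its own.

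Hormone and granule transcripts were lower in the double mutant villi. Of the 10 genes, 8 fell (edgeR quasi-likelihood test, adjusted p under 0.05), and 2, *Gip* and *Pax6*, had negative estimates that did not pass. Among all 13346 genes tested, 36.8% passed in either direction and 17.0% were lower. The fall exceeded 4-fold, a log2 fold change of −2 or less, for 3 genes, *Tph1*, *Sct* and *Sst*, against 2.26% of all genes. In 8 genes the highest double mutant value was under the lowest wild-type value, a pattern seen in 24.2% of all genes. The median log2 fold change was −1.55 over the 10 genes and 0.02 over all genes tested, or 0.22 over all genes when libraries were scaled by their size alone. Together the 10 genes took 0.0232%, 0.0279% and 0.0364% of the counts in the wild-type mice and 0.0121%, 0.0123% and 0.0113% in the double mutant mice. All p-values measure the spread between these mice.

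**Figure D1:**
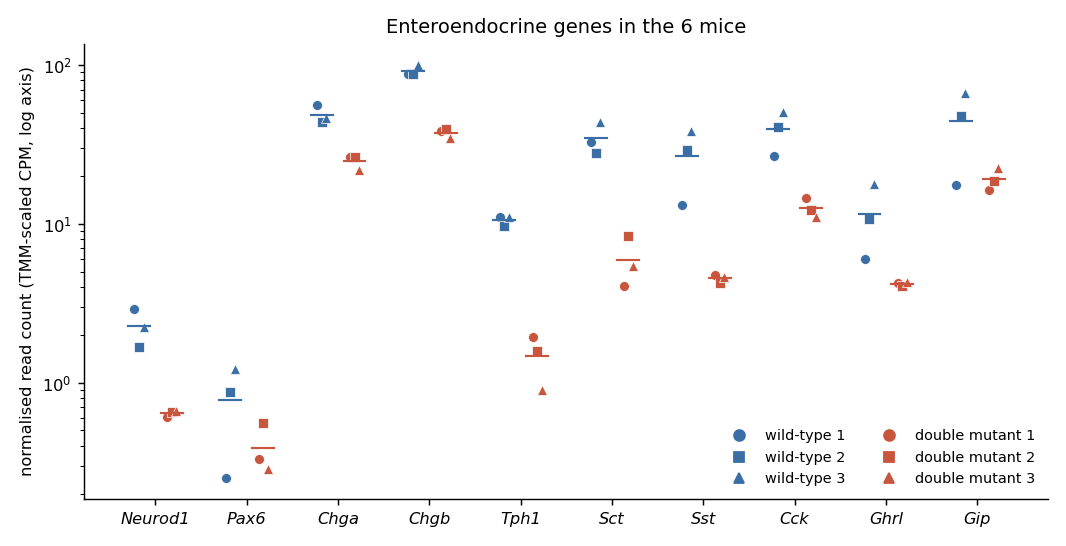
Normalised read count of each gene in each mouse (CPM scaled by TMM, log axis), with blue for wild-type, red for double mutant, a marker shape for each mouse number and a bar at the group mean (n = 3). The groups are separate for 8 genes and overlap for *Pax6* and *Gip*, where wild-type mouse 1 (blue circle) lies among or below the double mutant mice.

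Both chromogranins, acidic proteins that pack hormones into granules and are made by most enteroendocrine cells, fell, and the mice of each group were close to one another. *Chga* (ENSMUSG00000021194, chr12:103793179-103803237) was at 56.2, 43.5 and 46.2 CPM in the wild-type mice and at 26.4, 26.2 and 21.7 CPM in the double mutants. The lowest wild-type value was well above the highest double mutant value. The means were 48.6 ± 6.69 and 24.7 ± 2.65 CPM (SD, n = 3), a log2 fold change of −0.97 (SE 0.143, edgeR adjusted p = 0.00138), or 1.97-fold lower. *Chgb* (ENSMUSG00000027350, chr2:132607014-132620815) was at 88.1, 87.5 and 100.5 CPM against 38.3, 39.5 and 34.7 CPM, and the groups again did not overlap. It fell by 1.29 on the log2 scale (SE 0.114, edgeR adjusted p = 0.000174). Wild-type mouse 1 had the highest *Chga* value, and without it the log2 fold change of *Chga* was −0.86.

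*Tph1* (ENSMUSG00000040046, chr7:53902500-53927907) encodes tryptophan hydroxylase 1, the rate-limiting enzyme of serotonin synthesis in enterochromaffin cells, the most numerous enteroendocrine type. It was at 11.0, 9.68 and 11.0 CPM in the wild-type mice and at 1.92, 1.58 and 0.902 CPM in the double mutants. The wild-type mice were nearly equal, and all 3 double mutants were several times lower. This was the largest fold change of the 10 genes (log2 fold change −2.84, SE 0.286, edgeR adjusted p = 0.000297, 7.16-fold lower), and with each mouse left out in turn it stayed between −3.07 and −2.58.

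Of the transcription factors, *Neurod1* fell and *Pax6* did not pass the test. NEUROD1 is a helix-loop-helix factor of committed enteroendocrine precursors. Its gene (ENSMUSG00000034701, chr2:79292678-79296908) was at 2.92, 1.69 and 2.22 CPM in wild-type and at 0.610, 0.649 and 0.665 CPM in double mutant mice, which were close to one another and below every wild-type mouse. The log2 fold change was −1.82 (SE 0.367, edgeR adjusted p = 0.0057). *Cerkl*, annotated over it on the same strand, had at most 4 counts in any mouse. PAX6 is a paired-box factor that acts on hormone genes such as *Gip* and *Gcg*. Its gene (ENSMUSG00000027168, chr2:105509053-105543317) was scarce, with 6, 16 and 24 counts in the wild-type mice and 7, 12 and 6 in the double mutants, which is 0.25, 0.87 and 1.21 CPM against 0.329, 0.557 and 0.285 CPM. The groups overlapped through wild-type mouse 1, and the log2 fold change of −0.96 (SE 0.64, edgeR adjusted p = 0.271) did not pass with that mouse or without it (−1.40, adjusted p = 0.0601). *Elp4*, annotated over part of *Pax6* on the other strand, had 22 to 89 counts, and since the use of strand in the counting is not stated, reads of the 2 genes where they overlap cannot be told apart.

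The 5 peptide hormones of the duodenum are taken next in the order of their fold change. *Sst* (ENSMUSG00000004366, chr16:23889667-23890930) encodes somatostatin, the D cell peptide that restrains the secretion of other hormones and of acid. It was at 13.2, 29.3 and 38.3 CPM in the wild-type mice and at 4.79, 4.27 and 4.65 CPM in the double mutants. The double mutant mice were almost equal, whereas the wild-type mice were spread, with mouse 1 lowest. *Sst* fell by 2.56 on the log2 scale (SE 0.37, edgeR adjusted p = 0.00188, 5.88-fold lower), and its log2 fold change was −2.89 without wild-type mouse 1. *Sct* (ENSMUSG00000038580, chr7:148464230-148465032) encodes secretin, released by S cells when acid reaches the duodenum. Wild-type mice had 32.6, 28.0 and 43.9 CPM and double mutant mice had 4.08, 8.35 and 5.41 CPM. No value came near the other group, and the log2 fold change was −2.55 (SE 0.284, edgeR adjusted p = 0.000514, 5.85-fold lower).

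*Cck* (ENSMUSG00000032532, chr9:121398943-121404807) encodes cholecystokinin, the I cell hormone of gallbladder contraction and satiety. It stood at 26.8, 40.6 and 50.9 CPM in the wild-type mice and at 14.6, 12.2 and 11.1 CPM in the double mutants. The groups did not overlap, and wild-type mouse 1 was again the lowest of its group. The log2 fold change was −1.64 (SE 0.235, edgeR adjusted p = 0.00131, 3.12-fold lower). *Ghrl* (ENSMUSG00000064177, chr6:113666113-113669874) encodes ghrelin, an appetite-stimulating peptide made mainly in the stomach and also in the upper intestine. Its level was 6.04, 10.7 and 17.7 CPM in wild-type and 4.22, 4.08 and 4.27 CPM in double mutant mice. Wild-type mouse 1 was close to the double mutants but above each of them. *Ghrl* fell by 1.45 on the log2 scale (SE 0.356, edgeR adjusted p = 0.0141). This call was lost when double mutant mouse 1 (adjusted p = 0.0527) or double mutant mouse 2 (adjusted p = 0.0575) was left out, and held without any 1 of the other 4 mice.

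*Gip* (ENSMUSG00000014351, chr11:95885859-95892145) encodes the K cell incretin that raises insulin release after a meal, and it did not pass with all 6 mice but passed without wild-type mouse 1. Wild-type mice had 17.5, 47.8 and 66.9 CPM, and double mutant mice had 16.4, 18.6 and 22.5 CPM. Wild-type mouse 1 lay inside the range of the double mutants and the other wild-type mice were above all of them. The log2 fold change was −1.20 (SE 0.47, edgeR adjusted p = 0.0949) with all 6 mice and −1.58 (SE 0.184, adjusted p = 0.000209) without wild-type mouse 1. Without that mouse 9 of the 10 genes fell, against 17.1% of all genes tested in that fit, and *Pax6* was the exception.

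**Figure D2:**
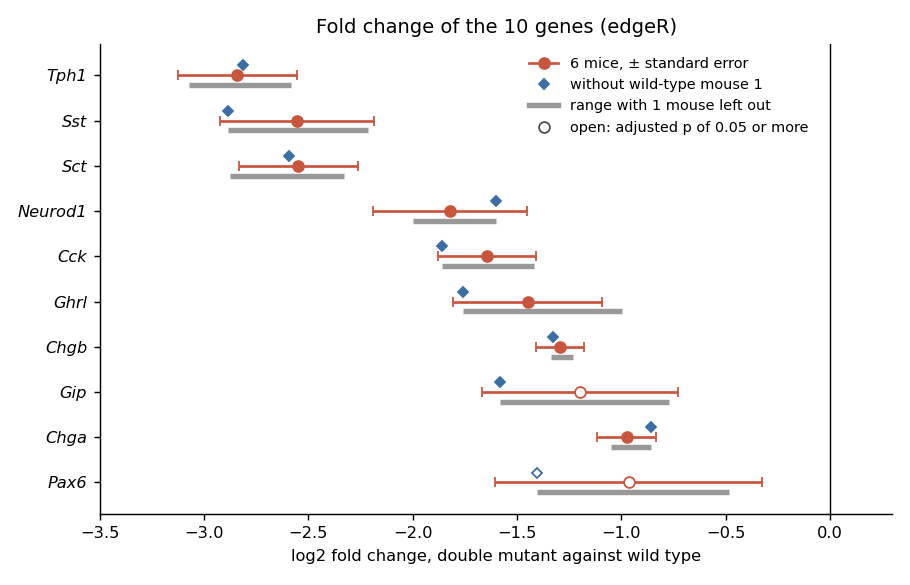
Log2 fold change of each gene, double mutant against wild type, from edgeR with 6 mice (red circles, bars ± standard error), without wild-type mouse 1 (blue diamonds) and as the range with 1 mouse left out (grey bars). Open symbols have an adjusted p of 0.05 or more. All estimates are below 0, *Tph1*, *Sst* and *Sct* lie beyond −2, and *Gip* is open with 6 mice and filled without wild-type mouse 1.

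In an edgeR fit with a term for genotype by sex, 0 of the 10 genes had an adjusted p under 0.05 for that term, against 2.64% of all genes, and 4 of the 10 had an unadjusted p under 0.05, against 17.7% of all genes. The smallest adjusted p was that of *Sst* (0.0572), and *Gip* had 0.0637. Each group held only 1 male, so sex and wild-type mouse 1 cannot be told apart and these values say nothing about sex itself.

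Levels can be set against one another only per length of transcript. In CPM per kb of merged exons, wild-type means ran from 65.2 for *Sct* and 64.2 for *Gip* through 46.5 for *Cck*, 44.9 for *Sst*, 33.6 for *Chgb*, 25.8 for *Chga* and 21.8 for *Ghrl*. Neighbours in this order overlapped between mice, except *Chgb* and *Chga*, and *Gip* alone spanned 25.5 to 97.4 CPM per kb. Far below came *Tph1* at 2.87, *Neurod1* at 0.834 and *Pax6* at 0.0392 CPM per kb, each separate from its neighbours in every mouse. Merged exons take in every annotated exon of a gene, 19833 bases for *Pax6* and 527 to 3682 for the others. The level of *Pax6* per kb may therefore be too low for its transcripts. In the double mutants *Gip* led at 27.9 CPM per kb, and its lowest mouse (23.9) was above the highest value of any other gene (17.2, for *Cck* in mouse 1). *Cck* (14.9), *Chgb* (13.7), *Chga* (13.2) and *Sct* (11.1) followed, and then *Ghrl* (7.96) and *Sst* (7.63), each overlapping its neighbours in the order. *Tph1* (0.399), *Neurod1* (0.235) and *Pax6* (0.0197) were again the lowest.

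Among the 5 peptide hormones alone, the share of each was taken as a description, with no test. *Gip* made up 16.8%, 29.1% and 28.9% of their summed CPM per kb in wild-type and 36.9%, 37.6% and 45.6% in double mutant mice, so that its share was higher in every double mutant although its level was not higher. *Ghrl* also took a larger share in every double mutant mouse (7.56%, 8.51% and 9.96% against 12.4%, 10.8% and 11.3%). *Sct* went from 40.3%, 21.9% and 24.4% to 11.8%, 21.7% and 14.1%, and wild-type mouse 2 was only just above double mutant mouse 2. *Sst* dropped from 14.5%, 20.4% and 19.0% to 12.4%, 9.90% and 10.8%. *Cck* kept a similar share, with means of 19.6% ± 1.57 and 21.6% ± 4.40 (SD, n = 3) that overlapped. Shares sum to 100 within a mouse, so a rise of 1 share implies a fall of others. Wild-type mouse 1 had the largest share of *Sct* and the smallest of *Gip*, *Ghrl* and, among wild-type mice, *Sst*.

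**Figure D3:**
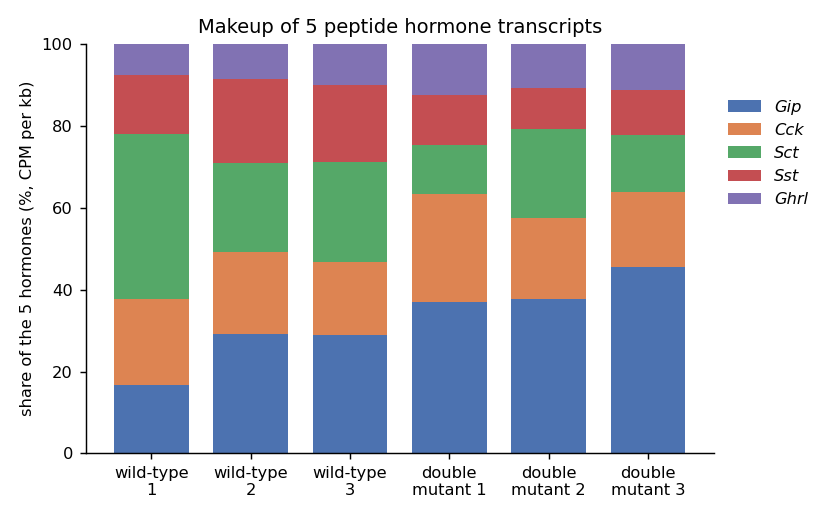
Share of each of 5 peptide hormone transcripts in their summed CPM per kb (%), one stacked bar per mouse from 0 to 100%. *Gip* (blue, bottom) takes 16.8 to 29.1% in the wild-type mice and 36.9 to 45.6% in the double mutants, and the *Sct* (green) and *Sst* (red) segments are narrower in the double mutants.

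The same question was asked with *Chga* as the yardstick, since the ratio of 2 genes within a mouse does not depend on library scaling. For 3 mice per group the smallest value of an exact permutation test (two-sided) is p = 0.1, which over the 9 ratios gives a Benjamini-Hochberg value of 0.225, so no ratio could pass. *Tph1* had 0.195, 0.223 and 0.239 reads per *Chga* read in the wild-type mice and 0.0738, 0.0611 and 0.0426 in the double mutants, a log2 difference of −1.92 without overlap. *Sct* (−1.61), *Sst* (−1.45) and *Neurod1* (−0.79) also had lower ratios in every double mutant than in any wild-type mouse (exact p = 0.1 each). Together these are 4 of 9 ratios, and 2.95% of all tested genes had a lower ratio to *Chga* without overlap. For the other 5 genes the groups overlapped, with log2 differences of −0.63 for *Cck*, −0.34 for *Ghrl*, −0.32 for *Chgb*, −0.04 for *Gip* and 0.22 for *Pax6*. Wild-type mouse 1 had the lowest wild-type ratio for every gene except *Neurod1*. Without it the log2 differences of *Cck*, *Ghrl*, *Gip*, *Pax6* and *Chgb* were −0.996, −0.85, −0.71, −0.54 and −0.46. The overlap of *Cck*, *Ghrl*, *Gip* and *Chgb* came from that mouse alone, and only *Pax6* still overlapped without it. The share of all genes with a separate ratio without that mouse was not computed.

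**Figure D4:**
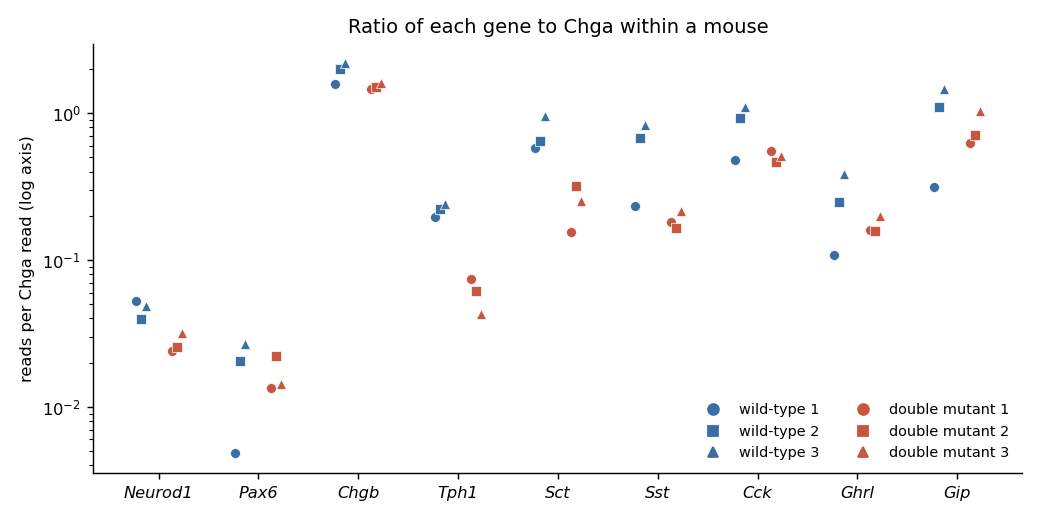
Reads of each gene per read of *Chga* within a mouse (0.5 added to both counts, log axis), with blue for wild-type, red for double mutant and a marker shape for each mouse number. *Tph1*, *Sct*, *Sst* and *Neurod1* are separate between groups, and the other 5 genes overlap.

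Of 12 other gut hormones listed, 4 were tested, and 1 fell and 1 rose, against 36.8% of all genes called in either direction. *Nts* encodes neurotensin, a peptide of N cells that is found on the villus. It was at 15.2, 13.9 and 16.5 CPM in the wild-type mice and at 0.61, 0.464 and 0.142 CPM in the double mutants, the last of these from 3 counts. The log2 fold change was −5.20 (SE 0.37, edgeR adjusted p = 7.4e-05), larger than that of any of the 10 genes. *Tac1*, which encodes substance P and is a product of crypt enterochromaffin cells, moved the other way, from 0.167, 0.87 and 0.455 CPM to 3.10, 2.64 and 1.80 CPM (log2 fold change 2.36, SE 0.549, edgeR adjusted p = 0.0107). *Tph1* and *Tac1*, both products of enterochromaffin cells, thus changed in opposite directions. The L cell hormones *Gcg* (log2 fold change 0.15, SE 0.532) and *Pyy* (0.35, SE 0.442) did not pass, and their groups overlapped, with means of 2.84 and 3.14 CPM for *Gcg* and of 1.23 and 1.56 CPM for *Pyy*. *Ucn3*, *Iapp* and *Gal* were too scarce to test, and 5 hormones of the list, *Gast* among them, were not analysed here because the table holds no entry for them.

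Some other genes of the secretory granule fell as well. Of 21 genes for granule content, prohormone processing and exocytosis, 18 were tested and 8 fell, against 17.0% of all genes, with 17 negative estimates and a median log2 fold change of −1.35. Among the 8, *Vgf*, lost its call whichever mouse was left out. The largest fall in fold was that of *Snap25*, a membrane fusion protein, with 45 counts in all wild-type mice together and 6 in the double mutants (log2 fold change −2.89, SE 0.613, edgeR adjusted p = 0.0071). *Cpe*, the carboxypeptidase that trims prohormones after cleavage, went from 31.3, 55.9 and 58.3 CPM to 7.46, 5.38 and 9.45 CPM (−2.70, SE 0.295, edgeR adjusted p = 0.00055). *Pcsk1*, the convertase that cuts them first, was at 6.17, 8.49 and 8.74 CPM against 3.24, 2.13 and 1.95 CPM (−1.67, SE 0.275, edgeR adjusted p = 0.0023). *Scg2*, a further granin, fell by 1.77 on the log2 scale (SE 0.438, edgeR adjusted p = 0.0139). Without wild-type mouse 1, 11 of 19 tested fell, against 17.1% of all genes.

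Of 18 transcription factors that set up the lineage, 11 were tested and 2 fell, a share close to the 17.0% of all genes that were lower, with 5 negative estimates and a median log2 fold change of 0.39. *Lmx1a*, a factor of the enterochromaffin lineage that acts on *Tph1*, had 1.71, 1.41 and 1.31 CPM in the wild-type mice and 0.423, 0.417 and 0.0475 CPM in the double mutants (log2 fold change −2.30, SE 0.603, edgeR adjusted p = 0.0177). *St18* fell by 2.45 (SE 0.688, edgeR adjusted p = 0.0234) but lost its call when any 1 of 3 mice was left out, wild-type mouse 1 (adjusted p = 0.0535) among them. Without that mouse 13 factors were tested and 4 fell, against 17.1% of all genes. *Neurog3*, the factor that starts the lineage, was at the edge of detection with 0, 1 and 10 counts in the wild-type mice and 7, 8 and 8 in the double mutants, and it was not tested. Wild-type mouse 1 had the lowest sum of the list at 14.3 CPM, against 36.6 to 42.7 CPM in wild-type mice 2 and 3 and 27.8 to 33.3 CPM in the double mutants.

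All 11 genes of amine synthesis and transport, *Tph1* not among them, were tested. Of these 1 fell and 1 rose, against 36.8% of all genes called in either direction, and the median log2 fold change was −0.01. *Slc18a1*, the vesicular transporter that loads serotonin into granules of enterochromaffin cells, was at 14.8, 17.5 and 16.6 CPM against 15.1, 15.2 and 15.3 CPM, with overlapping groups (log2 fold change −0.10, SE 0.135). The gene that fell was *Maob*, an amine-degrading oxidase (−1.81, SE 0.36, edgeR adjusted p = 0.0088), and the gene that rose was *Spr*, an enzyme of cofactor synthesis (0.41, SE 0.136, edgeR adjusted p = 0.0423), whose call was kept in 2 of 6 fits with a mouse removed. Without wild-type mouse 1, 3 of the 11 genes rose and 1 fell, where 17.1% of all genes tested in that fit were lower. *Maob* and *Spr* are widely expressed outside enteroendocrine cells.

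Of 14 genes for nutrient sensing and excitability, 6 were tested and 5 fell, against 17.0% of all genes. *Abcc8*, the sulfonylurea receptor of hormone-secreting cells, fell by 2.57 on the log2 scale (SE 0.635, edgeR adjusted p = 0.0137) and *Trpa1*, an irritant-gated channel of enterochromaffin cells, by 2.05 (SE 0.519, edgeR adjusted p = 0.0154). *Lpar5*, a lysophosphatidic acid receptor, had a log2 fold change of −0.64 and lost its call when any 1 of 3 mice was left out. The others that fell were *Slc5a1* and *Slc15a1*, the glucose and peptide transporters that enterocytes express at far higher levels, and are not markers of enteroendocrine cells. Among 16 hormone and serotonin receptors, 1 had enough counts to be tested, *Glp1r*, and it did not pass with all 6 mice (−1.90, SE 0.681, edgeR adjusted p = 0.057) but passed without wild-type mouse 1 (−2.25, adjusted p = 0.0165).

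**Figure D5:**
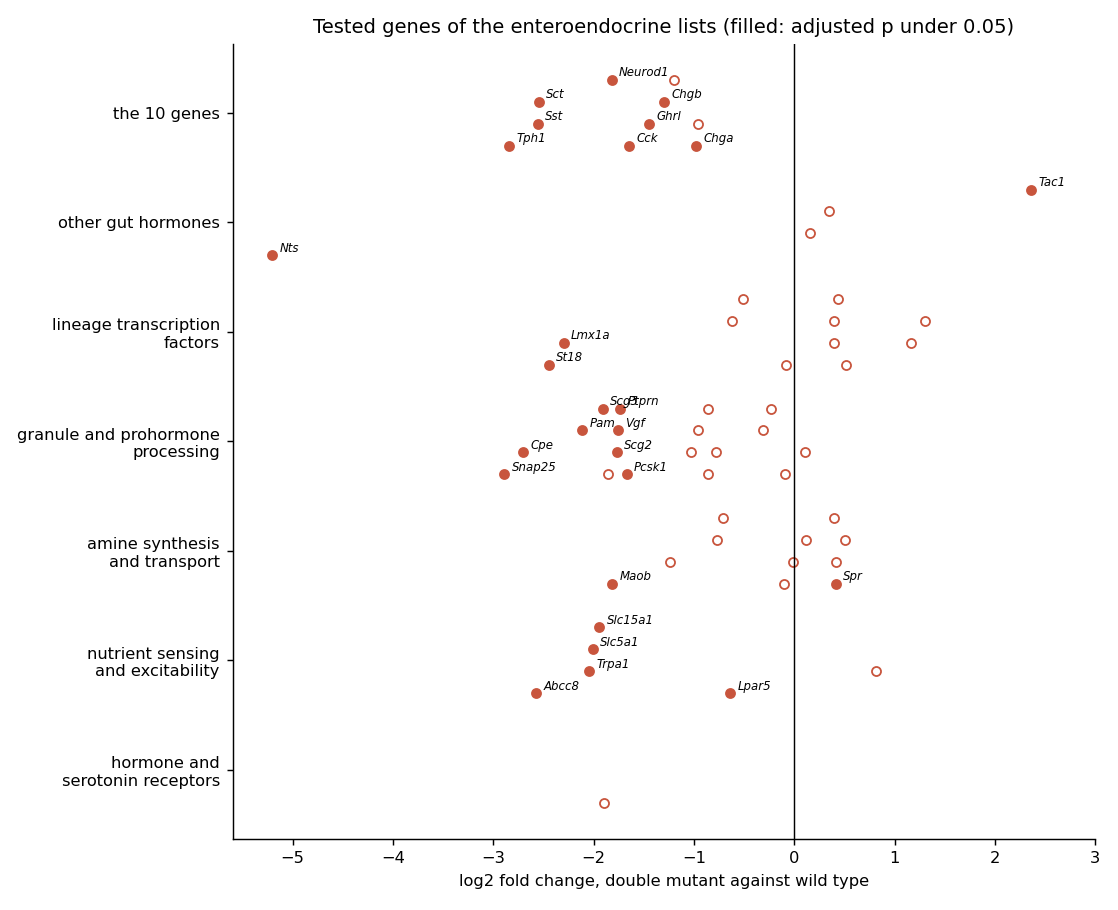
Log2 fold change, double mutant against wild type, for every tested gene of the enteroendocrine lists (one point per gene, spread vertically within a list for legibility). Filled points have an edgeR adjusted p under 0.05 and carry the gene name. The granule list lies mostly to the left of 0, the lineage factors and amine genes lie on both sides, and *Nts* and *Tac1* are the extremes in either direction.

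Markers of some other cell types changed as well. Among all 13346 genes tested, 17.0% were lower and 2632 genes were higher, and 17.1% were lower without wild-type mouse 1. Of 10 tuft cell markers, 9 were tested and all 9 fell, and the sum of the list was 127 to 188 CPM in wild-type and 15.7 to 18.5 CPM in double mutant mice. Stem cell markers summed to 50.5 to 163 CPM and 250 to 328 CPM respectively, with 3 of 8 higher, or 5 of 8 without wild-type mouse 1. Of 10 enterocyte markers 6 fell and 1 rose. Among 9 goblet markers 1, *Clca1*, rose, and without wild-type mouse 1 a further 6 fell. Paneth markers summed to 390 to 976 CPM in the double mutants, and with all 6 mice 0 of the 7 tested passed in edgeR (0 at an unadjusted p under 0.05, and 1 by DESeq2), whereas without wild-type mouse 1, 2 of the 8 rose and 3 fell. Of 10 leukocyte markers 7 were tested and 2 fell, or 6 without wild-type mouse 1, and the list summed to 86.3 to 172 CPM in wild-type and 73.7 to 114 CPM in double mutant mice. Stomach and pancreas also make some of the 10 genes. Of their markers, 5 of 9 gastric and pyloric markers and 6 of 10 pancreas markers had no entry in the table. The gastric list summed to 1.197 to 2.83 CPM in wild-type and 2.32 to 5.07 CPM in double mutant mice. *Muc6* and *Gkn3*, the latter also used as a marker of intestinal stem cells, made up most of it in the double mutants. In wild-type mice *Gkn3* was at 0, 0.0544 and 0.91 CPM. *Muc6* was the largest in wild-type mice 1 and 3, and *Pgc* in wild-type mouse 2 (0.653 CPM). The pancreas list, mostly *Cela1*, summed to 5.82 to 6.37 CPM and 7.18 to 10.4 CPM. Mast cells express *Tph1* too. Of 9 mast cell markers 2 had no entry and *Kit* made up most of the sum in every mouse, which was 6.17 to 10.8 CPM in wild-type and 2.55 to 5.07 CPM in double mutant mice. The neuron and glia list, mostly *Ret*, summed to 5.37 to 9.25 CPM in wild-type and 17.0 to 18.7 CPM in double mutant mice, and *Tubb3*, *Prph* and *Uchl1* were under 1 CPM in all 6 mice. The part of these lists in the hormone results was not tested.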

How the data were processed

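Villi epithelium was separated with EDTA, retained on a filter and extracted in TRIzol, and poly(A) libraries were sequenced. Per the labels and the submitters' processing notes, reads were aligned to mm9 with HISAT2 and counted per gene with featureCounts, and the authors deposited raw counts, 1 column per mouse. The handling of strand and of reads with several matches is not given in the sources used here. From these counts, genes were filtered with filterByExpr (13346 kept), scaled by TMM and tested in edgeR 4.0.16 (R 4.3.3) with the robust quasi-likelihood test over all 6 mice without covariates. P-values were adjusted by Benjamini-Hochberg over all tested genes, and a gene was called at an adjusted p under 0.05. The study's methods use DESeq2, which was run as an alternative (1.42.0), as was limma-voom (limma 3.58.1). Each standard error was derived from the log2 fold change and its F statistic. Ratios to *Chga* added 0.5 to both counts. Lengths and symbols came from the GENCODE annotation of mm9, and start windows from RefSeq. Members, lists and tests were chosen with earlier results of these data known. All 10 genes are named, together with preset list genes and, from each list, up to 2 called genes in each direction. *Vgf*, *Slc5a1*, *Slc15a1*, *Lpar5*, *Glp1r* and some cell type markers fall outside this rule and were named after their values were seen. Replicate numbers did not pair the mice (correlations of 0.0224, −0.109 and 0.0123 for equal numbers).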

Additional observations from a re-analysis of the deposited data

How the results depend on the processing

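Of 714 recomputed values, 642 kept their direction and call or stayed within the spread. The 8 calls among the 10 genes held under RLE scaling, library size alone, DESeq2, limma-voom, other filters and sex as a covariate, and *Gip* also passed with DESeq2 and with sex as a covariate. Library size alone called 1425 genes lower over the whole table against 2273. With the replicate block, 8 of the 10 genes still fell, although equal numbers did not mark a shared source, and calls over the table were 2084 higher and 1750 lower. Among lineage factors, 1 rose with library size alone, DESeq2, limma-voom or no filter, and 1 to 4 fell with 1 mouse left out. Among amine genes, 2 fell under DESeq2, the replicate block and the sex covariate (1 to 2 with 1 mouse left out), and the number that rose was 0 with RLE, the replicate block and the sex covariate, 2 with no filter, 3 with library size alone and 0 to 3 with 1 mouse left out. Receptors had 1 lower with DESeq2, 2 with no filter and 0 to 2 with 1 mouse left out. For *Slc18a1* the log2 fold change was 0.091 with library size alone, and for *Gcg* it ran from −0.29, without wild-type mouse 1, to 0.62 and was −0.06 without double mutant mouse 2. Log2 ratios to *Chga* ran with 1 mouse left out from −0.54 to 0.69 for *Pax6* (−0.01 without double mutant mouse 2), from −0.71 to 0.40 for *Gip* (0.20, 0.40, 0.12 and 0.02 without wild-type mice 2 and 3 and double mutant mice 1 and 2) and from −0.85 to 0.067 for *Ghrl*. The causes were not tested. Low counts limit *Pax6*, *Neurog3*, *Snap25* and the receptors, and also *Lmx1a*, *St18* and *Abcc8*, each with 1 count in double mutant mouse 3.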
